A study of Mus musculus with 6 samples.

Results

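Immediate early genes are switched on within minutes of a stimulus without the need for new protein synthesis. The 10 described here, Fos, Fosb, Fosl1, Fosl2, Jun, Junb, Egr1, Atf3, Ier3 and Dusp1, were taken by gene symbol from the deposited table of 18477 genes, and all 10 were present and passed the filter on low counts. The colon libraries came from young male C57BL/6 mice, all with colitis induced by dextran sulfate sodium (DSS), a toxic polymer added to the drinking water in the final week. PBS was given daily by gavage in the DSS group (3 libraries), and live B. vulgatus, a commensal Bacteroidales species, in the DSS+BV group (3 libraries). No library of undamaged colon was analysed here. The labels number the 3 samples of each group without saying whether each is a separate animal, so p-values measure the spread between these samples, which may be technical.

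The FOS and JUN proteins pair through leucine zippers to form the transcription factor AP-1, and ATF3 belongs to the same wider family. EGR1 is a zinc finger transcription factor, IER3 is a regulator of cell survival, and DUSP1 is a phosphatase that switches off the MAP kinases that turn these genes on. Growth factors, cytokines and injury induce them in epithelium and stroma, and so can dissection of the tissue itself. The interval between euthanasia and RNA preservation is not given in the sources used here, and its part in any difference was not tested.

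The expected counts summed to between 15293276 and 17254343 per library. Levels are given as CPM, read counts normalised to library totals that were scaled with TMM factors, and changes as log2 fold changes of DSS+BV against DSS. A gene was called at an adjusted p-value under 0.05 with an absolute log2 fold change over 1. In earlier clustering of these data, DSS 2 and DSS+BV 1 fell with libraries of the other group. Values without both are given for Fosl1 and for the ratio of Fos to Dusp1, and for all members in the closing section. That choice, made from the same data, favours larger differences between the groups, so these values are no independent support. The differences of some members were nonetheless smaller there.

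Promoter sequence is shown first for Dusp1, whose estimate was the lowest of the 10, and for Fos, Fosb and Atf3, whose estimates were above 0, as 4 of the 5 members with the motif marked below. The choice was made with their values known. RefSeq windows were matched for 8 of the 10 members, without Fosl1 and Egr1. Each sequence is a window of 250 bases on build GRCm38.p6, read 5′ to 3′ on the gene's strand. The windows of Fos, Atf3 and Dusp1 end at the base before the RefSeq gene. That of Fosb runs into the RefSeq gene, whose first base on the minus strand is 19310118. Capitals mark TGACG on either strand, the core of the cAMP response element that CREB and ATF proteins bind, and in Dusp1 the full palindrome TGACGTCA. The windows are chr12:85473640-85473889 on the plus strand for Fos and, on the minus strand, chr7:19310046-19310295 for Fosb, chr1:191183334-191183583 for Atf3 and chr17:26508473-26508722 for Dusp1.
Fos: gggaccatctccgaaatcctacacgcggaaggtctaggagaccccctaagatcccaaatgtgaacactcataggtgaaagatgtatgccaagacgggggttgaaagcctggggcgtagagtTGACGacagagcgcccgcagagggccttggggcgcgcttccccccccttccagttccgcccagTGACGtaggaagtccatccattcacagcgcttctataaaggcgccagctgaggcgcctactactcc
Fosb: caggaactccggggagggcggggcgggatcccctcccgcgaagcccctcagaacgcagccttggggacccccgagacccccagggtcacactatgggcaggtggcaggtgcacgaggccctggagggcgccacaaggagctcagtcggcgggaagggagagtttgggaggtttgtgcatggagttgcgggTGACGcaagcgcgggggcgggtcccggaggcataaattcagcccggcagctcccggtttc
Atf3: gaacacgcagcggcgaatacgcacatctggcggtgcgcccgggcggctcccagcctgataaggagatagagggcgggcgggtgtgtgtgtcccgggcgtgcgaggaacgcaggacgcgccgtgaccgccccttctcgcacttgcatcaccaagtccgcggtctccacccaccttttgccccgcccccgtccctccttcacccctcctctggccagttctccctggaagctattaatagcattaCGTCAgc
Dusp1: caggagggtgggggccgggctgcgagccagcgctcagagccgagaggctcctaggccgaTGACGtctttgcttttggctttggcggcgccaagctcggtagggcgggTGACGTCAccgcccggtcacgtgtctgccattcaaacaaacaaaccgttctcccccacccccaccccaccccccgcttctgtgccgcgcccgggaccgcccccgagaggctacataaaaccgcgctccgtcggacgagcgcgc

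TGACG was present in 5 of the 8 member windows (Fos, Fosb, Junb, Atf3 and Dusp1), and 17.8% of all 32851 promoter windows of this length hold it. With positions counted back from the end of each window, its leftmost base lay at -129 and -66 in Fos, and at -7 in Atf3. In Fosb it lay at -60, within the RefSeq gene and not upstream of it. The palindrome TGACGTCA, which reads TGACG on both strands, was at -143 in Dusp1 and in no other member window, and 1.55% of all windows hold it. Dusp1 has a further TGACG at -191. The GC box GGGCGG, the letters bound by SP1, was present in 7 of 8 member windows and in 32.7% of all windows. No member window held TGANTCA, a form of the AP-1 site, or the CArG box of serum response factor. They were in 6.75% and 1.47% of all windows. Other forms of the AP-1 site and letters further upstream were not searched, and Fosl1 and Egr1 had no window. The matches describe letters within these 250 bases and were not tested for binding.

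Between the groups, no member was called by edgeR's quasi-likelihood test adjusted over 14579 genes. The background of that comparison was 0.0892% of genes called lower and 0.0% called higher. Fosb and Fosl1 had an unadjusted p under 0.05, both higher in the DSS+BV group, against 3.4% of all genes in that direction and 9.12% in the other. DESeq2 called 1 member, Fosl1, as higher, where it called 0.279% of genes higher and 1.73% lower. The log2 fold changes were above 0 for 5 members and below 0 for 5, with a median of 0.36 beside -0.01 over all tested genes, of which 48.5% lay above 0. Fosl1 was also the only member whose groups did not overlap. Across all genes, the groups did not overlap for 6.37% in the higher direction and 11.3% in the lower, together 17.6%.

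**Figure D1:**
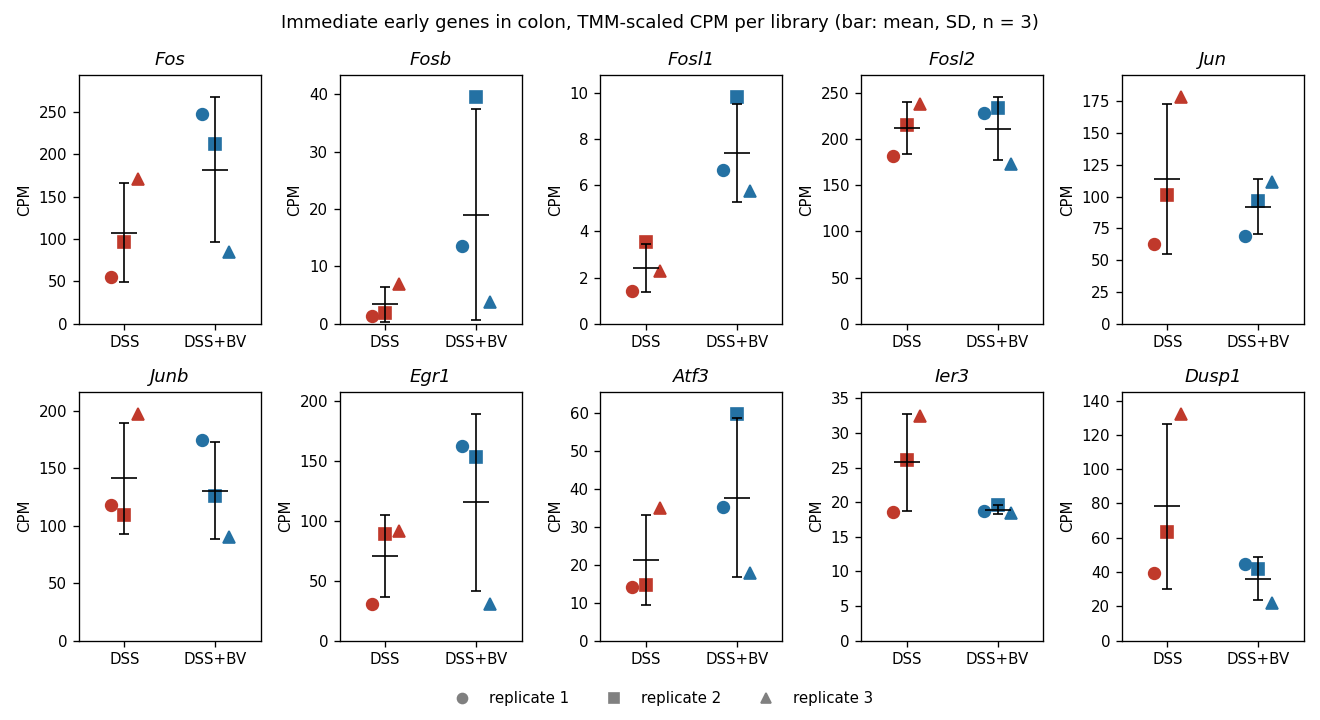
CPM of each of the 10 genes in each library, with the mean and SD of the 3 libraries per group as a bar. The vertical axes start at 0 and differ between panels, and Fosl1 is the gene whose groups do not overlap, with 3.54 CPM at most in DSS and 5.75 CPM at least in DSS+BV.

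Fosl1 (Entrez gene 14283, chr19:5447698-5455938 on GRCm38.p6, 4 exons) encodes FRA-1, a FOS-family partner in AP-1 that appears later and persists longer than FOS and is known from wound edges and migrating epithelium. Its level stood at 1.44, 3.54 and 2.27 CPM in DSS 1 to 3 and at 6.66, 9.81 and 5.75 CPM in DSS+BV 1 to 3. Every DSS+BV library lay above every DSS library. Its log2 fold change was 1.61 (standard error 0.405, 95% interval 0.65 to 2.58), with an adjusted p of 0.280 in edgeR's test and 0.0130 with DESeq2. With 1 library left out in turn, the edgeR value lay between 1.35 (without DSS 1) and 2.002 (without DSS 2). Without both DSS 2 and DSS+BV 1, a choice that favours larger differences, it was 2.08 (edgeR adjusted p = 0.0741). The counts behind it were few, from 24 in DSS 1 to 154 in DSS+BV 2.

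In GENCODE M21, 1163 of the 1864 bases of the principal Fosl1 transcript lie opposite exons of Ccdc85b, and whether reads were counted by strand is not given in the sources used here. Without strand, reads over the shared bases cannot be told apart. Ccdc85b differed in the other direction, at 17.8, 15.6 and 21.5 CPM in DSS 1 to 3 and at 11.02, 11.8 and 15.05 CPM in DSS+BV 1 to 3. Its log2 fold change was -0.53 (edgeR adjusted p = 0.388), and its groups did not overlap.

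The genes most like Fosl1 in pattern, by root-mean-square difference of centred log2 CPM over the 6 libraries, were Tppp (0.218), Selenbp2 (0.220), Gsdmc3 (0.253), Gm41885 (0.286) and Selenbp1 (0.312), out of 10813 genes with a mean above 3 on the log2 CPM scale. Selenbp1, a selenium-binding protein abundant in differentiated colonocytes, was at 280.3, 443.8 and 317 CPM in DSS 1 to 3 and at 764, 971 and 879 CPM in DSS+BV 1 to 3. Summed CPM of the 17 epithelial markers ran from 16432 to 28342 across DSS libraries and from 29120 to 46886 across DSS+BV libraries. Without Muc2, the most abundant marker, whose groups overlapped, the sums were 14093 to 18171 CPM and 22242 to 33994 CPM. Car1, still in those sums, was at 825, 1041 and 939 CPM in DSS 1 to 3. In DSS+BV 1 to 3 it was at 924, 10453 and 8702 CPM. The groups of Car1 overlapped too, and sums without it were not taken. Of the 17 epithelial markers 15 had log2 fold changes above 0, beside 48.5% of all tested genes, and none was at 0 CPM in all libraries. For 6 of them the groups did not overlap in the higher direction, beside 6.37% of all tested genes. No epithelial marker was called by edgeR. At an unadjusted p under 0.05 edgeR had 5 higher, beside 3.4% of all tested genes. DESeq2 called 1, Car1, higher, where it called 0.279% of genes higher. The part of the epithelial share in the Fosl1 difference was not tested. In bulk colon, fewer cells of a type and less RNA per cell cannot be told apart.

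Fos itself (Entrez gene 14281, chr12:85473890-85477274, 4 exons), the classic serum-induced gene of this class, was at 55.6, 96.2 and 171 CPM in DSS 1 to 3. The DSS+BV libraries had 247, 212 and 84.9 CPM. DSS+BV 1 and 2 were above all DSS libraries, and DSS+BV 3 lay between DSS 1 and DSS 2. The log2 fold change was 0.75 (standard error 0.514, 95% interval -0.47 to 1.98, edgeR adjusted p = 0.578), and 0.44 without DSS 1 or 1.26 without DSS 3. Fosb (Entrez gene 14282, chr7:19302696-19310118, 4 exons), the family member best known for its stable splice form in chronically stimulated neurons, had the widest range, from 1.38, 1.93 and 6.87 CPM in DSS 1 to 3 to 13.6, 39.4 and 3.86 CPM in DSS+BV 1 to 3. Again DSS+BV 1 and 2 exceeded all DSS libraries, while DSS+BV 3 lay below DSS 3. Its log2 fold change was 2.48 (standard error 0.957, 95% interval 0.19 to 4.76, edgeR adjusted p = 0.384), and it lay between 1.36 (without DSS+BV 2) and 3.52 (without DSS 3) with 1 library left out.

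Egr1 (Entrez gene 13653, chr18:34861207-34864956, 2 exons) was at 30.8, 88.8 and 91.2 CPM in DSS 1 to 3 and at 162, 153 and 30.3 CPM in DSS+BV 1 to 3. The lowest library of each group had nearly the same level, and the highest 2 were both DSS+BV. Atf3 (Entrez gene 11910, chr1:191170296-191183333, 4 exons), a stress-induced factor that restrains inflammatory transcription, was at 14.1, 14.7 and 34.9 CPM in the DSS libraries and 35.2, 59.6 and 17.9 CPM in the DSS+BV libraries, in replicate order. DSS+BV 3 lay between DSS 2 and DSS 3. The log2 fold changes were 0.71 for Egr1 (standard error 0.666, edgeR adjusted p = 0.681) and 0.82 for Atf3 (standard error 0.527, edgeR adjusted p = 0.554). Omitting single libraries, Egr1 lay between 0.36 (without DSS 1) and 1.17 (without DSS+BV 3), and Atf3 between 0.33 (without DSS+BV 2) and 1.39 (without DSS 3).

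The JUN genes and Fosl2 had estimates nearer to 0. Jun (Entrez gene 16476, chr4:95049036-95052222, 1 exon), the main FOS partner, was at 62.8, 101 and 178 CPM in DSS 1 to 3 and at 68.7, 96.7 and 111 CPM in DSS+BV 1 to 3. Its antisense gene Junos lies opposite 232 of its exonic bases. Junb (Entrez gene 16477, chr8:84976909-84978748, 1 exon), which can oppose JUN at some targets, was at 117, 109 and 197 CPM and at 174, 126 and 90.1 CPM in the same order. Fosl2 (Entrez gene 14284, chr5:32136472-32157840, 4 exons), encoding FRA-2, was the steadiest, at 182, 215 and 238 CPM and 227, 233 and 172 CPM. For all 3 genes the ranges of the groups overlapped widely. The 95% intervals of the log2 fold change were -1.22 to 0.61 for Jun, -0.88 to 0.64 for Junb and -0.42 to 0.42 for Fosl2, so for Junb and Fosl2 a change of 1 in either direction lay outside the interval. Jun was above 0 without DSS 3 (0.17), and Junb without DSS 3 (0.20) or without DSS+BV 3 (0.095).

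Dusp1 and Ier3 had the largest estimates below 0. Dusp1 (Entrez gene 19252, chr17:26505591-26508472, 4 exons) was at 39.7, 63.1 and 132 CPM in DSS 1 to 3 and at 44.6, 41.8 and 21.7 CPM in DSS+BV 1 to 3. DSS 1 alone lay within the DSS+BV range. Its log2 fold change was -1.12 (standard error 0.481, 95% interval -2.27 to 0.03, edgeR adjusted p = 0.407), and between -1.44 (without DSS 1) and -0.51 (without DSS 3) with 1 library left out. Ier3 (Entrez gene 15937, chr17:35821713-35822911, 2 exons) was at 18.6, 26.2 and 32.5 CPM in the DSS libraries and 18.7, 19.6 and 18.4 CPM in the DSS+BV libraries. The DSS+BV libraries sat together at the level of DSS 1. The log2 fold change was -0.44 (standard error 0.225, edgeR adjusted p = 0.468), and between -0.63 (without DSS 1) and -0.24 (without DSS 3) with 1 library left out.

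**Figure D2:**
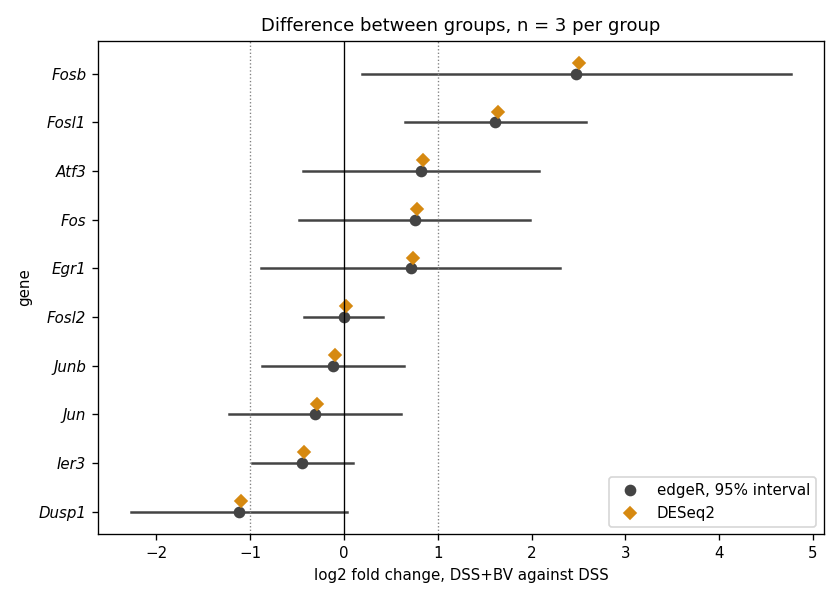
Log2 fold change of DSS+BV against DSS for each gene, with edgeR's estimate and 95% interval and DESeq2's estimate as a diamond. The dotted lines mark -1 and 1, and the edgeR intervals of Fosb and Fosl1 are those that leave out 0.

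For most members the libraries of a group differed widely, and the members largely shared their order. Among the DSS libraries, DSS 3 was highest for 9 of 10 members and DSS 1 was lowest for 9. In the DSS+BV group, DSS+BV 3 was lowest for 9 of 10, with Jun as the exception, and DSS+BV 1 and 2 were highest for 4 and 5. The highest library exceeded the lowest by 1.31-fold for Fosl2 to 4.99-fold for Fosb among DSS libraries, and by 1.07-fold for Ier3 to 10.2-fold for Fosb among DSS+BV libraries. Summed over the members, CPM was 524, 719 and 1083 in DSS 1 to 3 and 999, 992 and 556 in DSS+BV 1 to 3. The 49 tested genes of a list of other immediate early genes summed to 3225, 3890 and 5115 CPM and to 4692, 4667 and 3407 CPM in the same order, so DSS 1 and DSS+BV 3 were the lowest 2 libraries on both sums and DSS 3 the highest.

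**Figure D3:**
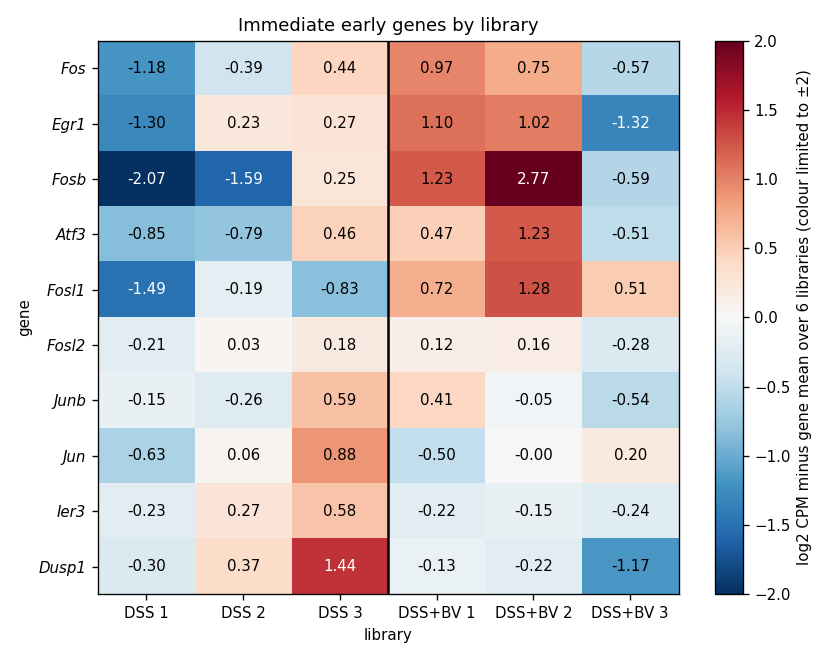
Log2 CPM of each gene in each library minus the gene's mean over the 6 libraries, with colour limited to 2 either side of 0 and the vertical line between the groups. DSS 1 and DSS+BV 3 are low for most genes, with medians of -0.74 and -0.52, and DSS 3, DSS+BV 1 and DSS+BV 2 are high, with medians of 0.45, 0.44 and 0.45.

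The genes outside the member list most like Fos were Btg2, an antiproliferative early gene (0.282, as the root-mean-square difference), and Errfi1, a feedback inhibitor of the EGF receptor (0.284). Slc20a1 (0.299), Trib1 (0.330) and Best2 (0.339) followed. Atf3 had a closer partner in Plk3, a stress-induced kinase, at 0.0844. Plk3 was at 14.7, 15.2 and 35.9 CPM in DSS 1 to 3 and at 34.5, 57.7 and 20.7 CPM in DSS+BV 1 to 3. Hbegf, a ligand of the EGF receptor, was the fifth nearest to Atf3 (0.323), after Trib1 (0.217), Pmp22 (0.288) and Gprc5a (0.310).

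Ratios between members within a library do not depend on how libraries are scaled, and they were compared for all 45 pairs after the values had been seen. The 45 ratios share genes. The groups did not overlap for 16 of them, beside 18.1% of the ratios of all pairs of tested genes. Dusp1 took part in 6 of the 16, with Fos, Fosb, Fosl1, Fosl2, Junb and Atf3, and Fosb, Fosl1 and Junb in 5 each. The ratio of Fos to Dusp1 varied least between libraries of a group, with a pooled SD of 0.203 on the log2 scale, beside a median of 0.671 and a largest value of 1.35 over the 45. That of Fosl2 to Ier3 was nearly as steady, with a pooled SD of 0.210, and its groups overlapped. Fos counts were 1.40, 1.52 and 1.29 times those of Dusp1 in DSS 1 to 3, and 5.55, 5.07 and 3.92 times in DSS+BV 1 to 3. On the log2 scale the DSS libraries had a ratio of 0.49 ± 0.12 and the DSS+BV libraries 2.26 ± 0.26 (SD, n = 3 each), which differ by 1.77. The exact two-sided permutation test gave p = 0.1, the smallest that 3 libraries against 3 allow, and 0.281 after Benjamini-Hochberg adjustment over the 45 pairs. With 1 library left out in turn the difference lay between 1.67 and 1.92, and it was 1.73 without both DSS 2 and DSS+BV 1. As background, the ratio of Fos to a tested gene was higher without overlap in the DSS+BV group for 14.6% of genes, and that of a tested gene to Dusp1 for 19.4%.

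Fos and Dusp1 each varied about as much within the DSS group, by 3.07-fold and 3.33-fold, while their ratio there ranged only from 1.29 to 1.52. Atf3 counts were 0.354, 0.233 and 0.264 times those of Dusp1 in DSS 1 to 3, and 0.790, 1.43 and 0.825 times in DSS+BV 1 to 3. Fosb counts were 0.0347, 0.0305 and 0.0520 times those of Dusp1 in the DSS libraries and 0.305, 0.944 and 0.178 times in the DSS+BV libraries. Neither ratio overlapped between the groups. The ratio of Fosl1 to Ier3 was 0.0774, 0.135 and 0.0699 in the DSS libraries and 0.356, 0.500 and 0.313 in the DSS+BV libraries, again without overlap. Fos counts were 0.886, 0.953 and 0.961 times those of Jun in the DSS libraries, a narrow range, and 3.60, 2.19 and 0.764 times in DSS+BV 1 to 3, which spans it. Ratios of Fos to Egr1 and of Fos to Atf3 overlapped, with differences of 0.23 and -0.03 on the log2 scale.

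**Figure D4:**
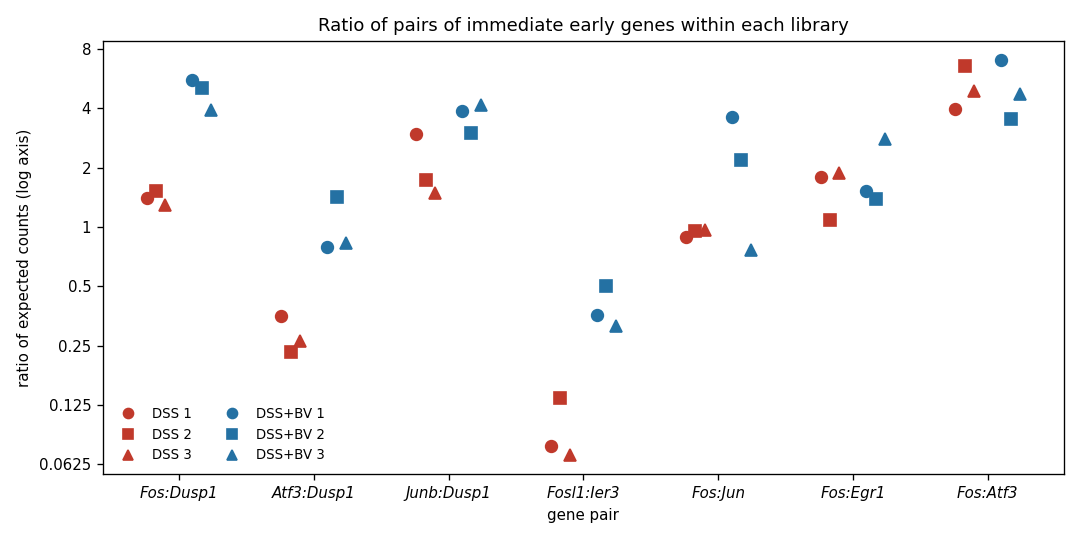
Ratio of expected counts for 7 pairs of members within each library, on a log axis, with the DSS libraries on the left and the DSS+BV libraries on the right of each pair. The ratio of Fos to Dusp1 lies between 1.29 and 1.52 in DSS and between 3.92 and 5.55 in DSS+BV, while those of Fos to Jun, Fos to Egr1 and Fos to Atf3 overlap.

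Levels of different genes were compared per kilobase of the principal GENCODE M21 transcript. In the DSS group the order of mean CPM per kilobase was Junb (78.0 ± 26.8), Fos (51.0 ± 27.8), Dusp1 (39.3 ± 24.1), Jun (35.7 ± 18.4), Fosl2 (32.3 ± 4.30), Ier3 (22.8 ± 6.17), Egr1 (15.7 ± 7.62), Atf3 (10.7 ± 5.97), Fosl1 (1.30 ± 0.569) and Fosb (0.897 ± 0.800; SD, n = 3 each). Among neighbours in this order, Atf3 and Fosl1 were the pair whose libraries did not overlap. In the DSS+BV group Fos came first at 86.1 ± 40.6 CPM per kilobase and Dusp1 seventh at 18.1 ± 6.28 (SD, n = 3 each). Neighbours there overlapped except Junb above Fosl2 and Ier3 above Fosb, and Fosl1 was last at 3.97 ± 1.14 (SD, n = 3).

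Genes around the members in the pathway were counted in lists. Of the 49 tested other immediate early genes, 23 had log2 fold changes below 0 and 26 above, with a median of 0.03, and none was called by edgeR (3 lower and 1 higher at an unadjusted p under 0.05) or by DESeq2. Socs3, an inhibitor of cytokine signalling, was at 122, 66.1 and 183 CPM in DSS 1 to 3 and at 70.0, 70.5 and 29.6 CPM in DSS+BV 1 to 3 (log2 fold change -1.12, edgeR adjusted p = 0.394). Trib1, a pseudokinase, had a log2 fold change of 0.96 (edgeR adjusted p = 0.388). Ier5l and Arl4d had log2 fold changes of -1.29 and -0.95, and for both every DSS+BV library lay below every DSS library.

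Among 24 tested AP-1 partners, 16 had values below 0 and 8 above, with a median log2 fold change of -0.09, and none was called by edgeR (1 lower at an unadjusted p under 0.05) or DESeq2. Atf5, Bach1 and Batf3 were among those with the smallest p-values, with log2 fold changes of -0.60, 0.33 and -1.09. The 38 tested genes of the MAP kinase and SRF pathway had a median of 0.03, with 0 called by edgeR (3 lower and 1 higher at an unadjusted p under 0.05) and 0 by DESeq2. Map3k8, the kinase TPL2, had a log2 fold change of -1.22, and Elk3 and Rps6ka5 had -0.80 and -0.72.

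The 21 tested genes of MAP kinase feedback, the other DUSP phosphatases with the Sprouty and SPRED inhibitors, had a median log2 fold change of 0.10. None was called by edgeR (2 lower and 2 higher at an unadjusted p under 0.05) or DESeq2. Spred3, Spred2, Dusp16 and Dusp22 led with -0.70, 0.38, 0.38 and -0.73.

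Heat shock genes, another class that tissue handling can induce, were listed beside the members. Of 24 tested, 9 had log2 fold changes below 0 and 15 above, with a median of 0.05. None was called by edgeR (1 lower at an unadjusted p under 0.05), and DESeq2 called 1, Hspb8, as lower (log2 fold change -1.34, edgeR adjusted p = 0.161). Their summed level stood at 8814, 6979 and 7874 CPM in DSS 1 to 3 and at 8609, 8717 and 7692 CPM in DSS+BV 1 to 3, highest in DSS 1, where 9 of the 10 members were at the lowest level of their group. Hspa1a, the stress-inducible HSP70, is named with its values known and was at 10.5, 8.33 and 18.8 CPM in the DSS libraries and 25.4, 14.0 and 6.76 CPM in the DSS+BV libraries, in replicate order.

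Marker lists of other colon cells give the background of tissue make-up. All 12 tested neutrophil markers, of 15 listed, had log2 fold changes below 0, with a median of -3.43. Of these edgeR called 5 as lower (S100a8, S100a9, Mmp8, Cxcr2 and Retnlg), and DESeq2 called 11. Their summed level was 284 to 1153 CPM in the DSS libraries and 37.2 to 340 CPM in the DSS+BV libraries, and 1 listed marker was at 0 in all libraries. Most of that sum was Ly6g in every library but DSS 2, where Ly6g was 76.1 of 284 CPM. The groups of Ly6g overlapped (edgeR adjusted p = 0.625). The other 11 tested markers summed to 208 to 298 CPM in the DSS libraries and 18.1 to 37.7 CPM in the DSS+BV libraries, without overlap. The 15 macrophage and monocyte markers had a median of -0.86, the 12 fibroblast markers -0.90, the 12 endothelial markers -0.65, the 12 B and plasma cell markers -0.73, the 11 T cell markers -0.31 and the 12 smooth muscle markers -0.14 as log2 fold changes, with no edgeR call in any of these lists. At an unadjusted p under 0.05, 2 macrophage, 10 fibroblast and 7 endothelial markers were lower in edgeR and 1 smooth muscle marker was higher, with 0 in the B and T cell lists. DESeq2 called 1 macrophage and 4 fibroblast markers as lower and 1 smooth muscle marker as higher. The summed macrophage and monocyte level stood at 1584, 984 and 2279 CPM in DSS 1 to 3 and at 1572, 685 and 638 CPM in DSS+BV 1 to 3. The part of these cells in the differences of Dusp1, Ier3 and the FOS genes was not tested.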

How the data were processed

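Colon RNA was sequenced as 6 libraries, 3 in each group. The authors quantified genes with RSEM and deposited expected counts, not scaled between libraries. The submitters' processing notes name RSEM 1.2.8, Bowtie2 2.2.5, HISAT2 2.1.0 and build GRCm38.p6. Reads divided between genes give fractions, but all values of the 10 members were whole.

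Expected counts were rounded, filtered with filterByExpr (minimum count 10, minimum total 15) and scaled with TMM factors. DSS+BV was set against DSS by glmQLFTest (edgeR 4.0.16, R 4.3.3), adjusted over 14579 genes (Benjamini-Hochberg). Standard errors came from the F statistic. DESeq2 1.42.0, the study's tool, was an alternative, with the factors, filters, robust fit, replicate block and left-out libraries listed in the closing section. Both tests were checked on simulated counts. Counts of libraries in a group differed beyond sampling noise (chi-square at least 43.7 times its degrees of freedom).

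The members and lists were chosen with earlier results of these data known. Named list genes are the 4 with the smallest p-values and any called gene, of which some are not reported here. Likeness was computed for Fos, Fosl1 and Atf3, each with the 5 nearest genes. Promoters came from RefSeq tables on GRCm38.p6 and transcripts from GENCODE M21. Marker sums without the most abundant marker were added after seeing the data. Figures were drawn with matplotlib 3.10.9.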

Additional observations from a re-analysis of the deposited data

How the results depend on the processing

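The number of members called lower was 0 under all 16 alternatives, and the number called higher was 0 except with DESeq2, where it was 1 (Fosl1, log2 fold change 1.64, adjusted p = 0.0130, with a range of 0.0130 to 0.903 over its alternatives). Over all genes, edgeR called 13 lower and 0 higher. These counts were 280 and 45 with DESeq2, 333 and 282 without DSS 2 and DSS+BV 1, and 0 and 0 with the replicate block. With 1 library left out they lay between 0 and 3 and between 0 and 4. Leaving out DSS 2 and DSS+BV 1, picked for falling with the other group, favours larger counts by design. Its share in that rise, and the cause of the other shifts, were not tested. The sign of a member's log2 fold change held under all 15 alternatives for Fos, Fosb, Fosl1, Egr1, Atf3, Ier3 and Dusp1. Fosl2 turned from -0.0017 to 0.019 with DESeq2, 0.0086 with RLE factors, 0.026 with every gene that had a count and 0.00091 with genes over 1 CPM in 3 libraries, and lay between -0.098 and 0.13 with 1 library left out. In that setting Jun lay between -0.60 and 0.17 (above 0 without DSS 3) and Junb between -0.37 and 0.20 (above 0 without DSS 3 or DSS+BV 3). The median of the members lay between 0.13 and 0.61 over the alternatives. It was 0.19 without DSS 2 and DSS+BV 1. Without both, the log2 fold changes were 0.40 for Fos, 2.40 for Fosb, 0.60 for Egr1 and 0.68 for Atf3. They were -0.20 for Jun and -0.41 for Ier3, and all of these moved toward 0. Those of Fosl1 (2.08), Fosl2 (-0.026), Junb (-0.52) and Dusp1 (-1.43) moved away from it. Samples with the same replicate number did not deviate together in every pair (correlations across genes of 0.27, 0.25 and -0.30), so the numbers were read as names, and the block changed no member's call. Library totals alone, upper-quartile factors and a robust fit changed no count of called members. At the lowest levels, Fosl1 in DSS 1 rested on 24 counts and Fosb on 23.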
